A study of Drosophila melanogaster with 24 samples.

Results

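The sex difference in RNA levels of the Drosophila melanogaster genital disc was followed from the prepupa to the pupa. The quantity examined was the female minus male difference at P20 minus the same difference at P6, a contrast that asks for which genes the distance between the sexes changed while the genitalia took shape. It used 16 of the 24 arrays of the study, 4 biological replicates in each of 4 groups (n = 4 arrays per group throughout), and the 13647 of 18952 probe sets that the array annotation assigns to 1 gene symbol, which stand for 11982 genes. P6 discs were dissected from pupae when the air bubble of the puparium was largest, at about 6 h after puparium formation. P20 discs were dissected when marker fluorescence first showed in the eye, at about 20 h. Females and males of both stages carried the same genotype, esgGAL4.B, UAS-GFP.nls/CyO, which gave green fluorescence in the imaginal discs, and were reared at 25 C. Single animals were staged and sexed one by one, but the sources used here do not give the number of discs per sample. The remaining 8 arrays, of wandering larvae (L3), were not part of the contrast and were read only as a separate measurement.

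The genital disc is a ventral imaginal disc that holds a female primordium, a male primordium and an anal primordium. In each sex the anal primordium and the primordium of that sex form the terminalia and inner ducts, while the other genital primordium grows little, under the control of the sex-specific proteins of doublesex (dsx). Pulses of the steroid hormone ecdysone drive the disc through eversion, the setting aside of bristle precursors, cuticle secretion and, in males, a rotation of the genitalia.

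Values are log2 RMA levels (robust multi-array average), on which 1 unit is a 2-fold difference. A positive change means that the sex difference moved towards females and a negative change that it moved towards males, whichever sex was higher. Probe sets passed when the adjusted p of the limma contrast was below 0.05. Correlations between replicates lay between 0.981 and 0.994, and the median SD over probe sets was 0.146 to 0.194 log2 units in the 4 groups. The number of arrays limits the precision. Discs of both sexes expressed genital disc genes at both stages, such as the hindgut and anal gene cad (10.11 to 10.73 as group means) and the posterior compartment gene en (9.31 to 10.02). The anal primordium gene byn was the lowest of the 10 identity genes that was low in both sexes, with group means of 4.41 to 5.47. Female discs were marked by lz and male discs by Dr and Poxn. In bulk tissue, fewer cells of a type and less RNA per cell cannot be told apart.

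Sex differences changed for 181 of the 13647 probe sets, 1.33% of those tested, which belong to 174 genes. For 68 probe sets (0.498%) the change was towards females and for 113 (0.828%) towards males. The change was 2-fold or more for 147 of them, 54 towards females (0.396%) and 93 towards males (0.681%). By comparison, 711 probe sets (5.21%) differed between the sexes at P6, 203 (1.49%) higher in females and 508 (3.72%) higher in males. At P20, 387 (2.84%) differed, 117 (0.857%) and 270 (1.98%). From P6 to P20, 4133 probe sets (30.3%) changed in females and 4079 (29.9%) in males. The median change over all probe sets was 0.02 log2 units.

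The 181 probe sets fell into several kinds. The most frequent was a male-higher value at P20 in a gene that had not passed at P6, with 56 probe sets. Another 36 were higher in males at P6 and did not pass at P20, and 33 were higher in females at P6 and did not pass at P20. A female-higher value first passed at P20 for 20. In 12 males were higher and in 9 females were higher at both stages, and 7 passed at neither. For 8 the difference turned over, and all of these went from female-higher to male-higher. None went from male-higher to female-higher.

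**Figure D1:**
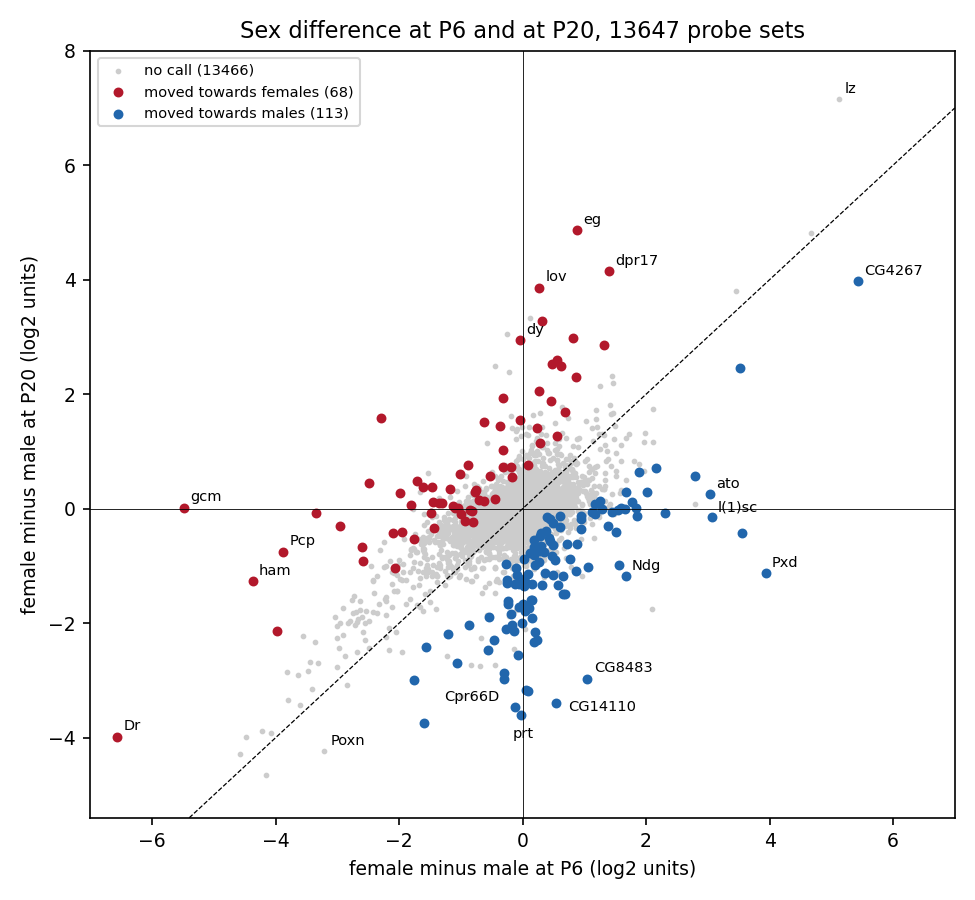
Female minus male difference at P6 (horizontal axis, log2 units) against the same difference at P20 (vertical axis, log2 units) for 13647 probe sets, each point 1 probe set; the dashed line marks no change. Red points (68) moved towards females and blue points (113) towards males; gcm lies far to the left at a P20 difference near 0, and the lower right holds the 8 probe sets that turned from female-higher to male-higher.

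The stage changes within each sex show which sex moved. Among the 113 probe sets that moved towards males, levels fell in both sexes for 35 and rose in males with no call in females for 32. They fell in females with no call in males for 20, rose in both for 15, and fell in females while rising in males for 11. Among the 68 that moved towards females, levels rose in females with no call in males for 20, fell in males with no call in females for 17, rose in both for 13, fell in both for 12, and rose in females while falling in males for 6.

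The gene with the largest change towards females was gcm, glial cells missing, which encodes a zinc-containing transcription factor known for the fates of glia and blood cells. In the 4 P6 female arrays gcm read 2.85, 2.69, 2.95 and 3.27, and in the P6 male arrays 8.48, 8.56, 8.23 and 8.45. P20 values were 5.41, 5.21, 5.01 and 6.59 in females and 5.39, 5.54, 5.74 and 5.45 in males. The sexes were far apart at P6 with no overlap, and overlapped at P20. The female minus male difference of gcm went from -5.49 to 0.02, a change of 5.51 ± 0.35 log2 units (SE; adjusted p = 1.79e-07). The level rose by 2.61 in females and fell by 2.90 in males, so that both sexes met in between. Its paralog gcm2 lies close to gcm on chromosome arm 2L, with 2 other protein-coding genes between. It read 4.67, 4.27, 4.43 and 4.45 in P6 females and 6.08, 5.59, 6.13 and 5.84 in P6 males, against 4.33 to 5.10 and 4.18 to 4.84 in P20 females and males. The sexes were apart at P6 and overlapped at P20, a change of 1.57 ± 0.25 (adjusted p = 0.00202), with the fall in males alone (-1.33).

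These 2 genes were the 2 of 15 measured hemocyte marker genes whose sex difference changed, beside 174 of all 11982 genes. The other 14 probe sets of that list gave no call, and the nearest was Pxn, a peroxidasin of the extracellular matrix, at 1.08 (adjusted p = 0.0577). Without gcm and gcm2 the mean level of the list was 6.74 to 7.24 in P6 female arrays and 6.82 to 7.08 in P6 male arrays, so the sexes overlapped. At P20 it was 6.13 to 6.81 in females and 6.07 to 6.29 in males. None of the 15 probe sets of the neuron and glia list passed, beside 1.33% of all probe sets.

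Other male-higher differences of the prepupa were also gone or smaller at P20. The cuticle gene Pcp, which encodes a pupal cuticle protein, read 5.66, 5.62, 5.75 and 6.27 in P6 females and 9.26, 10.39, 9.34 and 9.81 in P6 males. P20 arrays read 8.40, 9.00, 8.97 and 8.92 in females and 10.07, 9.39, 10.05 and 8.79 in males. Females alone had risen, and the sexes overlapped at P20 with males still higher on average. The difference went from -3.88 to -0.75 (change 3.13 ± 0.41, adjusted p = 0.000321). The uncharacterised gene CG13053 rose in both sexes to nearly the same high level. It read 4.39, 4.50, 4.68 and 4.69 in P6 females and 8.16, 7.61, 7.61 and 8.24 in P6 males, and 13.09 to 13.40 in P20 females and 13.29 to 13.34 in P20 males. The P6 groups lay apart and the P20 groups overlapped (change 3.27 ± 0.20, adjusted p = 9.76e-08).

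The nuclear factor gene dac, dachshund, which patterns appendages and the genital disc, read 7.75, 7.67, 7.84 and 8.04 in P6 females and 9.55, 9.46, 9.45 and 9.70 in P6 males. Levels at P20 were 10.71, 10.05, 9.99 and 9.96 in females and 9.45, 9.89, 9.71 and 9.74 in males. All P6 males were above all P6 females, and all P20 females were slightly above all P20 males. The difference at P20, 0.48, did not pass (adjusted p = 0.142), while its change of 2.19 ± 0.22 did (adjusted p = 1.82e-05). The elongase gene bond, which makes very long chain fatty acids and is known for its part in spermatocyte division, fell in males from 7.03 to 7.45 at P6 to 5.04 to 5.76 at P20. Female arrays read 4.06 to 4.34 and then 4.18 to 5.74, apart from males at P6 and overlapping them at P20 (change 2.65 ± 0.34, adjusted p = 0.000321). The uncharacterised gene CG2962 went from -2.29 to 1.59 (change 3.88 ± 0.76, adjusted p = 0.0125). Its P6 male arrays were spread widely, at 8.38, 9.63, 7.32 and 5.63, against 5.32 to 5.58 in P6 females. At P20 males read 3.49 to 3.94 and females 5.12 to 5.73.

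Genes of the testis and male germline were read beside these, since the male samples carried them. The mean level of the 30 testis list probe sets was 4.98 to 6.37 in P6 male arrays and 5.00 to 5.89 in P20 male arrays, against 4.29 to 4.56 and 4.31 to 4.40 in females. At P6, 14 of the 30 were higher in males, and at P20 5 were. None of them passed for the change of the sex difference, beside 1.33% of all probe sets, and their median change was 0.32. The part of testis RNA in the values of bond, CG2962 and other male-higher genes was not tested.

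Fibroblast growth factor (FGF) signalling held further male-higher differences that shrank or were lost. In male discs the FGF ligand Branchless, encoded by bnl, is known to recruit mesodermal cells that carry its receptor Breathless, encoded by btl, and that form the accessory glands and vas deferens. The bnl probe set with the highest level read 6.18, 6.37, 6.31 and 6.06 in P6 females and 8.95, 8.34, 9.09 and 8.95 in P6 males. Its P20 values were 4.83, 5.57, 5.12 and 5.30 in females and 5.91, 5.37, 5.98 and 6.23 in males. It fell in both sexes, and more in males (-2.96) than in females (-1.02), so the difference shrank from -2.60 to -0.67 (change 1.94 ± 0.28, adjusted p = 0.000832). On another bnl probe set males stayed higher on average, with a difference of -2.07 at P6 and -1.03 at P20 (change 1.04, adjusted p = 0.0174). On the last bnl probe set the change was 0.34 with no call.

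The btl receptor gene read 3.77 to 4.21 in P6 females and 4.84, 4.93, 5.02 and 5.63 in P6 males, and 4.14 to 4.68 and 3.79 to 4.19 at P20. Males had been above females at P6 without overlap and overlapped them at P20 (change 1.51 ± 0.24, adjusted p = 0.00241). The tracheal tube gene sano rose in both sexes, and its difference went from -1.04 to 0.02 (change 1.06, adjusted p = 0.00218). A second sano probe set gave 1.34 (adjusted p = 0.0605). These 3 genes of the 14 measured in the FGF and tracheal list moved towards females and none moved towards males, beside 66 and 108 of all 11982 genes. The median over its 19 probe sets was -0.05, against 0.02 over all probe sets. The change of htl, the FGF receptor gene of mesoderm, was -0.59 (adjusted p = 0.121).

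In ham and Dr the difference narrowed but males stayed higher. The zinc finger gene ham, hamlet, which sets fates in sensory organ lineages, read 3.63, 3.45, 3.50 and 3.34 in P6 females and 7.89, 7.05, 8.54 and 7.94 in P6 males. At P20 females read 6.46, 5.69, 5.42 and 5.58 and males 7.32, 7.14, 6.20 and 7.54. The P6 gap was wide, and at P20 the highest female array lay above the lowest male array. The difference moved from -4.37 to -1.26 (change 3.11 ± 0.44, adjusted p = 0.000678). A second ham probe set did not show this, with a difference of -0.51 at P6 and -0.03 at P20. Its change of 0.47 gave no call (adjusted p = 0.298).

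The homeobox gene Dr (Drop), of the Msx family and a marker of the male primordium, read 4.16, 3.32, 4.76 and 5.66 in P6 females and 10.87 to 11.33 in P6 males. At P20 it read 7.08, 6.76, 5.26 and 6.37 in females and 10.27 to 10.42 in males. Male arrays were above every female array at both stages, and the female values were spread more than the male ones. Its difference went from -6.57 to -3.98 (change 2.59 ± 0.57, adjusted p = 0.0293), with a rise of 1.89 in females. The Dr call was lost without any 1 of 10 arrays, with adjusted p of 0.0529 to 0.0762. These were P6 female replicate 1, P6 male replicates 1 and 2, P20 female replicates 1, 2 and 4, and P20 male replicates 1 to 4. With the replicate number as a block within each stage its adjusted p was 0.0626, and with the number as a block across stages 0.0558.

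**Figure D2:**
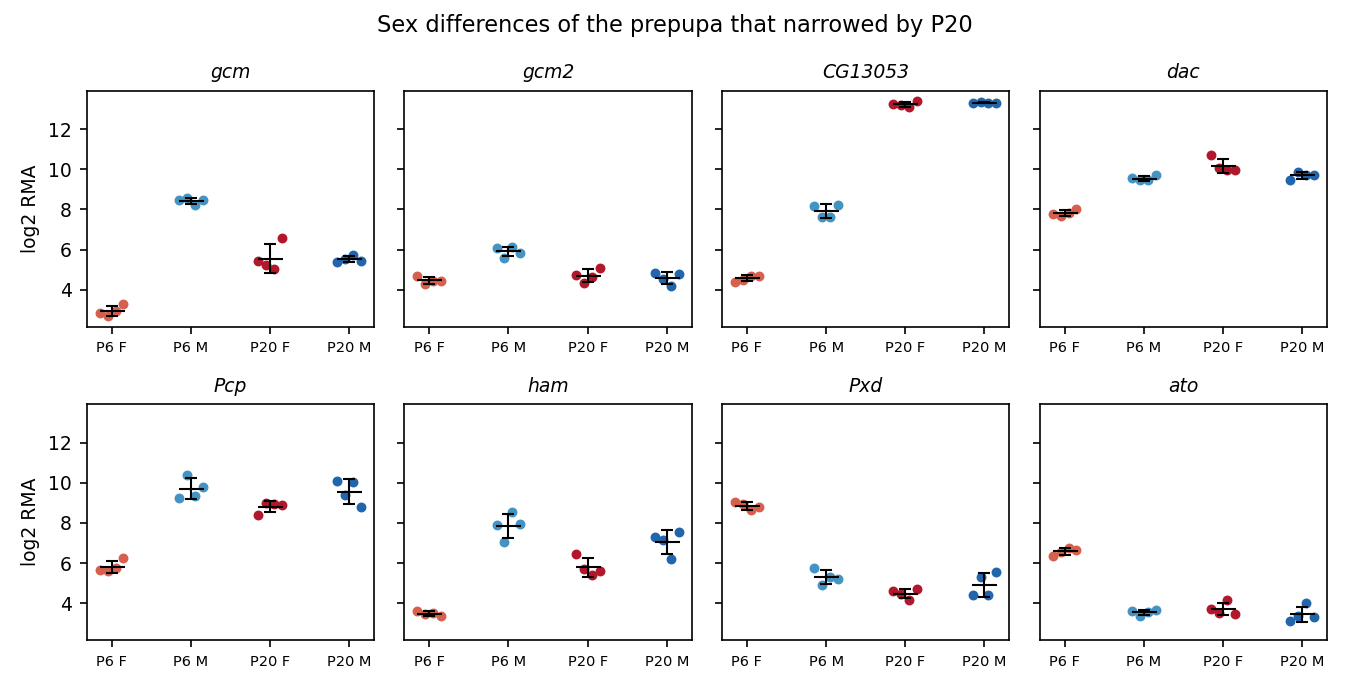
log2 RMA level (vertical axis) in each of the 4 arrays of P6 females, P6 males, P20 females and P20 males for 8 genes whose sex difference narrowed; points are arrays, bars are the mean ± SD. For gcm, gcm2, CG13053 and dac the male arrays stand above the female arrays at P6 and not at P20. Pcp and ham narrow to an overlap, and Pxd and ato show the female-higher counterpart.

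Female-higher differences of the prepupa were lost as well. The heme peroxidase gene Pxd moved towards males on both of its probe sets, and on the first by more than any other gene. The first read 9.26, 9.26, 8.84 and 8.99 in P6 females and 5.92, 4.84, 4.93 and 4.91 in P6 males, and 3.60, 3.74, 3.93 and 3.84 in P20 females and 4.01, 4.95, 4.93 and 5.74 in P20 males. Females were far above males at P6 and below them at P20, with no overlap at either stage. The difference of Pxd went from 3.94 to -1.13 (change -5.07 ± 0.41, adjusted p = 3.51e-06). Its second probe set went from 3.56 to -0.43 (change -3.99 ± 0.34, adjusted p = 6.02e-06), and there the sexes overlapped at P20 and the P20 difference did not pass (adjusted p = 0.565). The change lay in females, where the first probe set fell by 5.31, while the male change of -0.24 did not pass.

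Proneural genes, whose basic helix-loop-helix proteins commit cells to sensory organs, were among these losses. For ato, the proneural gene of chordotonal organs and photoreceptors, P6 females read 6.36, 6.56, 6.77 and 6.65 and P6 males 3.59, 3.38, 3.55 and 3.68. Both sexes were low at P20, 3.48 to 4.14 in females and 3.13 to 4.00 in males, and overlapped. The difference fell from 3.04 to 0.26 (change -2.77 ± 0.25, adjusted p = 7.76e-06).

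For l(1)sc, lethal of scute, P6 females read 6.50, 6.07, 6.34 and 6.56 and P6 males 3.51, 2.84, 3.36 and 3.52. At P20 females read 3.59 to 4.13 and males 3.62 to 4.57. The P6 sexes were apart and the P20 sexes overlapped, with a difference that went from 3.06 to -0.15 (change -3.22 ± 0.29, adjusted p = 8.03e-06). The homeobox gene unpg, unplugged, fell in females from 6.03 to 6.56 at P6 to 3.78 to 4.12 at P20, while males stayed at 3.20 to 3.90 and 3.12 to 3.70. P20 females remained just above the males without overlap, but the P20 difference of 0.58 did not pass (adjusted p = 0.074). The change was -2.22 ± 0.23 (adjusted p = 2.52e-05).

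In other genes the females kept their level and the males caught up. The secreted serine protease homolog gene scaf, scarface, a target of JNK signalling during epithelial closure, read 12.40 to 12.51 in P6 females and 10.86 to 11.47 in P6 males, then 12.52 to 12.68 and 12.82 to 12.98. P6 males lay below and P20 males slightly above the females, and the difference at P20 did not pass (-0.30, adjusted p = 0.27; change -1.68 ± 0.16, adjusted p = 1.52e-05). In the JNK, cell death and rotation list scaf passed as 1 of 21 probe sets, beside 1.33% of all probe sets. The serotonin transporter gene SerT stayed at 5.28 to 6.38 and 5.31 to 6.07 in females and rose in males from 4.10 to 4.57 to 6.04 to 7.35. The difference went from 1.56 to -0.98, of which the latter did not pass (adjusted p = 0.0672; change -2.54 ± 0.38, adjusted p = 0.00123).

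The 8 genes that turned from female-higher to male-higher were Pxd, CG8483, Ndg, ac, Amyrel, sc, Timp and mid. Amyrel and mid fall outside the naming rule and were added after their values were seen. CG8483, an uncharacterised gene, read 12.31, 12.34, 12.13 and 12.23 in P6 females and 11.26, 10.63, 11.40 and 11.50 in P6 males. In P20 arrays it read 8.94, 8.69, 8.51 and 8.84 in females and 11.73, 11.89, 11.35 and 11.89 in males. Females fell while males rose slightly (0.52), and the groups were apart at both stages (change -4.03 ± 0.24, adjusted p = 9.76e-08).

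The gene Ndg, which encodes the basement membrane linker nidogen, read 6.81, 7.18, 7.18 and 7.07 in P6 females and 5.56, 5.44, 5.55 and 5.01 in P6 males, then 7.32, 6.81, 6.55 and 6.76 in P20 females and 7.81, 8.06, 7.99 and 8.29 in P20 males. The sexes were apart both times, with the order turned, and the movement was in males, who rose by 2.65 (change -2.85 ± 0.24, adjusted p = 4.03e-06). Timp, the inhibitor of matrix metalloproteinases, fell in females alone, by 1.94, and its difference went from 0.65 to -1.18 (change -1.83, adjusted p = 5.88e-05). Its second probe set changed by -1.65 (adjusted p = 0.000937), although the P6 difference there did not pass (adjusted p = 0.125). The alpha-amylase related gene Amyrel went from 1.06 to -1.01 (change -2.07, adjusted p = 7.27e-05), and the T-box gene mid (midline) from 0.49 to -0.63 (change -1.13, adjusted p = 0.00194). Other basement membrane genes did not share the direction of Ndg. The laminin chain gene wb moved towards females (change 1.41, adjusted p = 0.000519), and the collagen IV genes vkg (0.54, adjusted p = 0.547) and Col4a1 (0.30, adjusted p = 0.97) gave no call.

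The proneural genes ac (achaete) and sc (scute) belong to the same group of 8. For ac, P6 females read 9.32, 9.40, 9.58 and 9.56 and P6 males 8.79, 8.77, 8.90 and 8.69, and at P20 females read 7.26, 7.04, 7.44 and 7.59 and males 8.99, 8.72, 8.67 and 8.91. For sc, P6 females read 10.63, 10.54, 10.60 and 10.40 and P6 males 10.19, 9.96, 10.02 and 9.70, and at P20 females read 8.70, 8.44, 8.33 and 8.72 and males 10.03, 9.82, 9.64 and 10.04. In both genes every P6 female was above every P6 male and every P20 female below every P20 male. Male levels did not pass for a stage change (0.03 for ac and -0.09 for sc), while females fell by 2.13 and by 1.99. The changes of the difference were -2.17 ± 0.17 (adjusted p = 2.28e-06) for ac and -1.90 ± 0.18 (adjusted p = 1.28e-05) for sc.

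These genes are neighbours on the X chromosome. In the order of protein-coding genes, y (yellow), ac, sc and l(1)sc follow each other directly, and ase (asense) follows with 1 gene between l(1)sc and ase. All 5 passed and all 5 moved towards males. The pigment gene y read 5.55, 5.01, 4.73 and 5.03 in P6 females and 4.75, 5.42, 4.88 and 4.66 in P6 males, and 3.71 to 4.37 and 5.66 to 6.18 at P20. The sexes overlapped at P6 and were apart at P20 (change -2.06 ± 0.28, adjusted p = 0.000406). The neural precursor gene ase overlapped between the sexes at P6, at 5.52 to 6.26 and 5.69 to 6.27. At P20 it read 5.34 to 6.39 in females and 7.04 to 7.19 in males.

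The change of ase was -1.21 ± 0.28 (adjusted p = 0.0495), at the threshold. It was lost in the fit to all 24 arrays (adjusted p = 0.10), with a mean-variance trend (0.0551), with array weights (0.0785), and without any 1 of 13 arrays (0.0529 to 0.111). The 3 arrays without which ase still passed were P6 female replicate 2, P6 male replicate 1 and P20 female replicate 1. The 13 were P6 female replicates 1, 3 and 4, P6 male replicates 2, 3 and 4, P20 female replicates 2, 3 and 4, and P20 male replicates 1 to 4.

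Of the 22 measured genes of the bristle and sensory organ precursor list, 6 moved towards males (ac, ato, l(1)sc, sc, svp and ase) and none towards females, beside 108 and 66 of all 11982 genes. Over its 27 probe sets the median change was -0.17, against 0.02 over all probe sets. The orphan nuclear receptor gene svp, seven-up, known for photoreceptor fates, rose in males from 5.38 to 6.00 at P6 to 7.52 to 8.23 at P20, and read 5.76 to 6.68 and 5.86 to 7.10 in females. The sexes overlapped at P6 and were apart at P20 (change -2.15 ± 0.35, adjusted p = 0.00245). A second svp probe set changed by -1.48 (adjusted p = 0.0225), and a dim one by -0.38 with no call. The change of phyl, which acts downstream of proneural genes, was -1.66 (adjusted p = 0.0533), and that of Poxn, the paired-domain gene of chemosensory bristles and male genital structures, was -1.04 (adjusted p = 0.0995).

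In the list of the Notch pathway and E(spl) complex, which restrains neural fates among neighbouring cells, the median of 20 probe sets was -0.27. In it 1 of 17 measured genes passed, beside 174 of all 11982 genes. This was E(spl)m4-BFM, a Notch target of the Bearded family. It fell in both sexes, from 9.76 to 10.27 to 6.74 to 7.70 in females and from 9.90 to 10.62 to 8.36 to 9.15 in males. The sexes overlapped at P6 and were apart at P20 (change -1.40 ± 0.31, adjusted p = 0.0314). The call of E(spl)m4-BFM was lost with the replicate number as a block across stages (adjusted p = 0.0615) and without any 1 of 12 arrays (0.0507 to 0.0801). It held without P6 female replicate 4, P6 male replicate 2, P20 female replicate 4 or P20 male replicate 3. It was lost without P6 female replicates 1, 2 or 3, P6 male replicates 1, 3 or 4, P20 female replicates 1, 2 or 3, or P20 male replicates 1, 2 or 4. E(spl)m5-HLH, a repressor gene of the same complex, gave -1.28 with no call (adjusted p = 0.237).

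**Figure D3:**
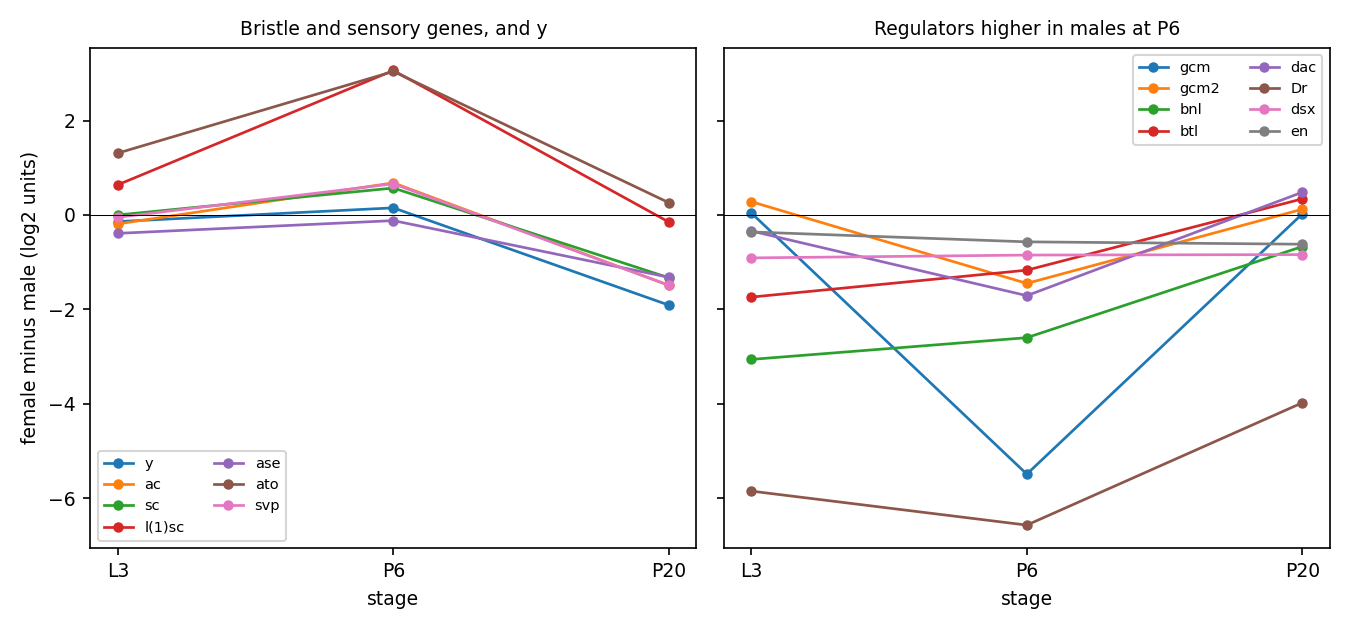
Female minus male difference (vertical axis, log2 units, difference of the means of 4 arrays per group) at L3, P6 and P20 for bristle and sensory genes with y (left) and for regulators higher in males at P6 (right); 1 line per gene. The lines of ato and l(1)sc peak at P6, those of y, ac, sc and svp drop from above 0 at P6 to below 0 at P20, that of ase is below 0 at all 3 stages and lowest at P20, gcm dips at P6 alone, and dsx and en stay level.

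Among the differences that arose by P20, the largest male-higher one on a named gene was that of prt, portabella, which encodes a protein similar to vesicular neurotransmitter transporters. It read 2.56, 2.60, 2.50 and 2.41 in P6 females and 2.43, 2.60, 2.59 and 2.52 in P6 males, which is near the bottom of the scale. At P20 it read 2.63, 2.73, 2.93 and 3.08 in females and 6.25, 6.26, 6.27 and 6.99 in males. Only the P20 males stood out, and the difference went from -0.02 to -3.60 (change -3.58 ± 0.21, adjusted p = 9.76e-08).

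Slc45-1, a member of a sugar transporter family, likewise rose in males alone. It read 5.91 to 7.60 in P6 females, 6.04 to 7.12 in P6 males, 6.78 to 7.86 in P20 females and 9.07, 9.95, 9.55 and 9.43 in P20 males. All groups but the P20 males overlapped (change -2.50 ± 0.48, adjusted p = 0.00949). With all 24 arrays in the fit, the adjusted p for Slc45-1 was 0.0766. The uncharacterised gene CG14110 fell in females and rose in males, from 7.07 to 7.91 and 6.35 to 8.22 at P6 to 4.66 to 5.19 and 7.99 to 8.84 at P20 (change -3.93 ± 0.48, adjusted p = 0.000171).

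On the female side, the largest new difference was that of eg, eagle, a zinc finger gene of the knirps family known for the fate of serotonin neurons. It read 5.26, 5.13, 5.84 and 5.66 in P6 females and 4.79, 3.63, 4.72 and 5.25 in P6 males. At P20 it read 8.32, 8.46, 9.00 and 8.89 in females and 3.89, 3.20, 4.57 and 3.55 in males. The P6 groups overlapped and the P20 groups were far apart, since females rose by 3.20 (change 3.99 ± 0.45, adjusted p = 7.54e-05).

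The BTB-domain gene lov, jim lovell, showed a similar pattern. P6 arrays read 3.38, 2.71, 4.13 and 4.29 in females and 2.76, 4.30, 2.36 and 4.01 in males, with no separation. P20 females read 7.76, 7.29, 7.62 and 7.33 and P20 males 3.43, 3.33, 4.62 and 3.20 (change 3.59 ± 0.61, adjusted p = 0.00383). The immunoglobulin-domain gene dpr17, of a family of neuronal cell surface proteins, was already higher in females at P6, at 6.75 to 7.70 against 5.14 to 6.58 in males. By P20 females read 9.52 to 9.81 and males 5.28 to 5.78, so that a difference of 1.40 became 4.15 (change 2.75 ± 0.36, adjusted p = 0.000359). In the dpr, DIP, beat and side list 1 of 72 probe sets passed, that of dpr17, a share near the 1.33% over all probe sets.

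The myoblast and muscle list held 22 measured genes with a median change of -0.22. In it 1 gene passed in each direction, beside 66 towards females and 108 towards males of all 11982 genes. The myogenic regulator gene nau, nautilus, the MyoD family gene of the fly, rose in females from 4.93 to 5.80 to 6.27 to 7.02, and males read 3.80 to 4.28 and 3.55 to 3.88. The sexes were apart at both stages, and the difference widened from 1.32 to 2.86 (change 1.54, adjusted p = 0.00392). The myoblast fusion gene sing, singles bar, rose in both sexes, and its female-higher value of 1.28 at P6 was -0.01 at P20 (change -1.29, adjusted p = 0.0108). With all 24 arrays in the fit, the adjusted p for sing was 0.0923. The mean level of the muscle list was 6.45 to 6.67 in P6 female arrays, 6.17 to 6.40 in P6 male arrays, 6.99 to 7.21 in P20 female arrays and 7.01 to 7.09 in P20 male arrays. Its part in the result for sing was not tested.

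**Figure D4:**
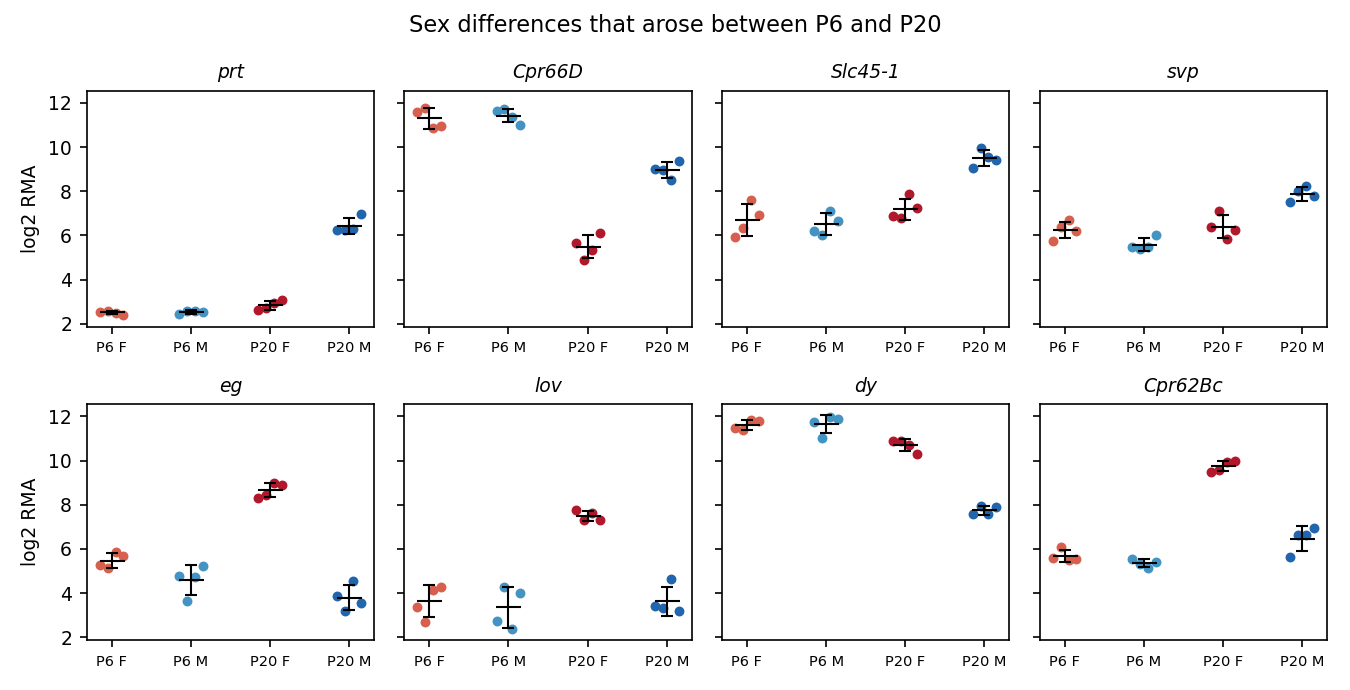
log2 RMA level (vertical axis) in each of the 4 arrays of P6 females, P6 males, P20 females and P20 males for 8 genes whose sex difference arose by P20; points are arrays, bars are the mean ± SD. P20 males stand alone for prt, Slc45-1 and svp, P20 females stand alone for eg, lov and Cpr62Bc, and Cpr66D and dy fall in both sexes to unequal levels.

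Genes of the apical matrix and cuticle changed in both directions. The zona pellucida domain genes dy (dusky) and dyl (dusky-like), which shape the cell surface under the cuticle, hairs and bristles, started level between the sexes and fell by P20. For dy, P6 arrays read 11.49, 11.36, 11.85 and 11.79 in females and 11.72, 11.04, 11.99 and 11.87 in males, and P20 arrays read 10.86, 10.90, 10.72 and 10.31 in females and 7.60, 7.93, 7.56 and 7.90 in males. Males fell by 3.91 and females by 0.92 (change 2.99 ± 0.27, adjusted p = 8.03e-06). For dyl, P6 arrays read 11.65, 11.71, 11.86 and 11.88 in females and 11.70, 11.87, 11.83 and 11.75 in males, and P20 arrays read 5.55, 4.28, 5.03 and 5.06 in females and 6.71, 6.73, 7.57 and 6.90 in males. Here females fell further, by 6.79 against 4.81 in males (change -1.98 ± 0.31, adjusted p = 0.00193). The paralogs thus overlapped between the sexes at P6 and were apart in opposite directions at P20.

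The forked gene f, whose protein bundles actin in bristles, fell more in males (-2.51) than in females (-1.18), a change of 1.33 ± 0.29 (adjusted p = 0.0293). Its second probe set gave -0.22 with no call. The call of f was lost with the replicate number as a block within each stage (adjusted p = 0.061). It was lost as well without any 1 of 9 arrays (0.0529 to 0.0737), which were P6 female replicates 1, 2 and 4, P6 male replicates 1 and 3, P20 female replicates 1 and 3 and P20 male replicates 1 and 4. In all, 3 of 17 measured genes of the apical matrix and hair list passed, dy and f towards females and dyl towards males, beside 174 of all 11982 genes, with a median over 20 probe sets of 0.13. The change of mey, another zona pellucida domain gene, was -1.03 (adjusted p = 0.0539).

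Of 81 measured cuticle protein genes, 5 moved towards females (Pcp, Cpr62Bc, Cpr67Fa1, Cpr35B and Cpr66Cb) and 4 towards males (Cpr66D, Cpr92F, Cpr51A and Cpr97Ea), beside 66 and 108 of all 11982 genes, with a median change of 0.07. They did not share a time course. Cpr66D was bright in both sexes at P6, at 11.59, 11.77, 10.86 and 10.93 in females and 11.63, 11.70, 11.35 and 11.01 in males. By P20 it read 5.68, 4.88, 5.32 and 6.12 in females and 8.99, 8.97, 8.50 and 9.37 in males, a fall that was larger in females (change -3.32 ± 0.38, adjusted p = 8.03e-05). Cpr51A likewise was level at P6, between 13.09 and 13.45 in all 8 arrays, and fell to 10.14 to 10.36 in females and 11.79 to 12.05 in males (change -1.67 ± 0.14, adjusted p = 4.03e-06).

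Cpr62Bc was low at P6, at 5.48 to 6.09 in females and 5.13 to 5.55 in males, and rose to 9.50, 9.59, 9.92 and 9.98 in P20 females and 5.63, 6.65, 6.64 and 6.94 in P20 males. The sexes overlapped at P6 and were apart at P20 (change 2.97 ± 0.32, adjusted p = 5.16e-05). Cpr66Cb rose in females alone, to 7.22 to 8.03 (change 1.87, adjusted p = 0.000129). Cpr92F rose in males alone, to 5.43 to 6.11 against 3.67 to 3.76 in P20 females (change -1.84, adjusted p = 0.000135). Cpr97Ea rose in both sexes, by 4.22 in females and 5.12 in males (change -0.89, adjusted p = 0.00859). Cpr35B was higher in males at P6 (-1.81) and level at P20 (0.06; change 1.87, adjusted p = 0.000387).

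The change of Cpr67Fa1 was 2.14 ± 0.46 (adjusted p = 0.027). The call of Cpr67Fa1 was lost with a replicate block across stages (0.0518) and without any 1 of 7 arrays (0.0511 to 0.0633), which were P6 female replicates 1, 3 and 4, P20 female replicate 4 and P20 male replicates 1, 3 and 4. Among 24 measured Tweedle cuticle genes, TwdlT moved towards females and TwdlN towards males, beside 66 and 108 of all 11982 genes. TwdlT was bright in both sexes at P6, at 12.79 to 13.10 in females and 11.76 to 13.08 in males, and fell to 6.23 to 7.67 in females and 4.16 to 4.57 in males (change 2.05 ± 0.38, adjusted p = 0.0075). TwdlN rose in males alone, by 1.55 (change -1.19, adjusted p = 0.00949).

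Single members passed in further families, 1 of 24 probe sets of Osiris genes and 1 of 50 of odorant-binding protein genes, beside 1.33% of all probe sets. Of 24 measured Osiris genes, which act in cuticle-secreting epithelia, Osi1 lost a male-higher value of -2.10 through a fall in males (change 1.68, adjusted p = 0.00132). Of 47 measured odorant-binding protein genes, Obp49a kept higher levels in males, at 8.47 to 8.85 at P6 and 8.56 to 9.71 at P20, while females rose from 4.38 to 5.18 to 6.69 to 7.29. The sexes stayed apart, and the difference went from -3.97 to -2.14 (change 1.82 ± 0.31, adjusted p = 0.00381). In the fit to all 24 arrays the Obp49a change did not pass (adjusted p = 0.419). For Obp99a the change was -2.28 with no call (adjusted p = 0.0952), and it passed with all 24 arrays in the fit (adjusted p = 0.0425).

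In the genital disc patterning list, 6 of 40 measured genes moved towards females (dac, eg, ham, lov, Awh and Dr) and 3 towards males (unpg, sob and prd), beside 66 and 108 of all 11982 genes, and the median of 47 probe sets was 0.02. The LIM-homeobox gene Awh, Arrowhead, widened its female-higher difference from 0.69 to 1.69 (change 1.0, adjusted p = 0.0056), while its second, dim probe set gave 0.00 with no call. The odd-skipped family gene sob fell in females alone, by 0.71 (change -0.74, adjusted p = 0.0138). Its adjusted p was 0.415 in the fit to all 24 arrays and 0.0673 with a replicate block within each stage.

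The Pax gene prd, paired, known for its role in the male accessory gland, read 3.29 to 3.36 in P6 females and 4.71 to 5.43 in P6 males, and 3.30 to 4.01 and 6.12 to 6.93 at P20. Males were above females at both stages, and the difference grew from -1.76 to -3.0 (change -1.24 ± 0.27, adjusted p = 0.0293). The prd call was lost without any 1 of 11 arrays (0.0533 to 0.0733), which were P6 female replicates 1 to 4, P6 male replicates 3 and 4, P20 female replicates 1, 3 and 4 and P20 male replicates 1 and 4. The Pax genes Poxn and eyg did not pass (adjusted p = 0.0995 and 0.873). The gooseberry genes gsb and gsb-n, which are adjacent and were named after their values were seen, fell in females by 1.91 and by 1.74. The male changes of -0.47 and 0.08 did not pass. The change of the difference was -1.44 (adjusted p = 0.0056) for gsb and -1.82 (adjusted p = 9.05e-05) for gsb-n. With all 24 arrays in the fit, the adjusted p for gsb was 0.0606.

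**Figure D5:**
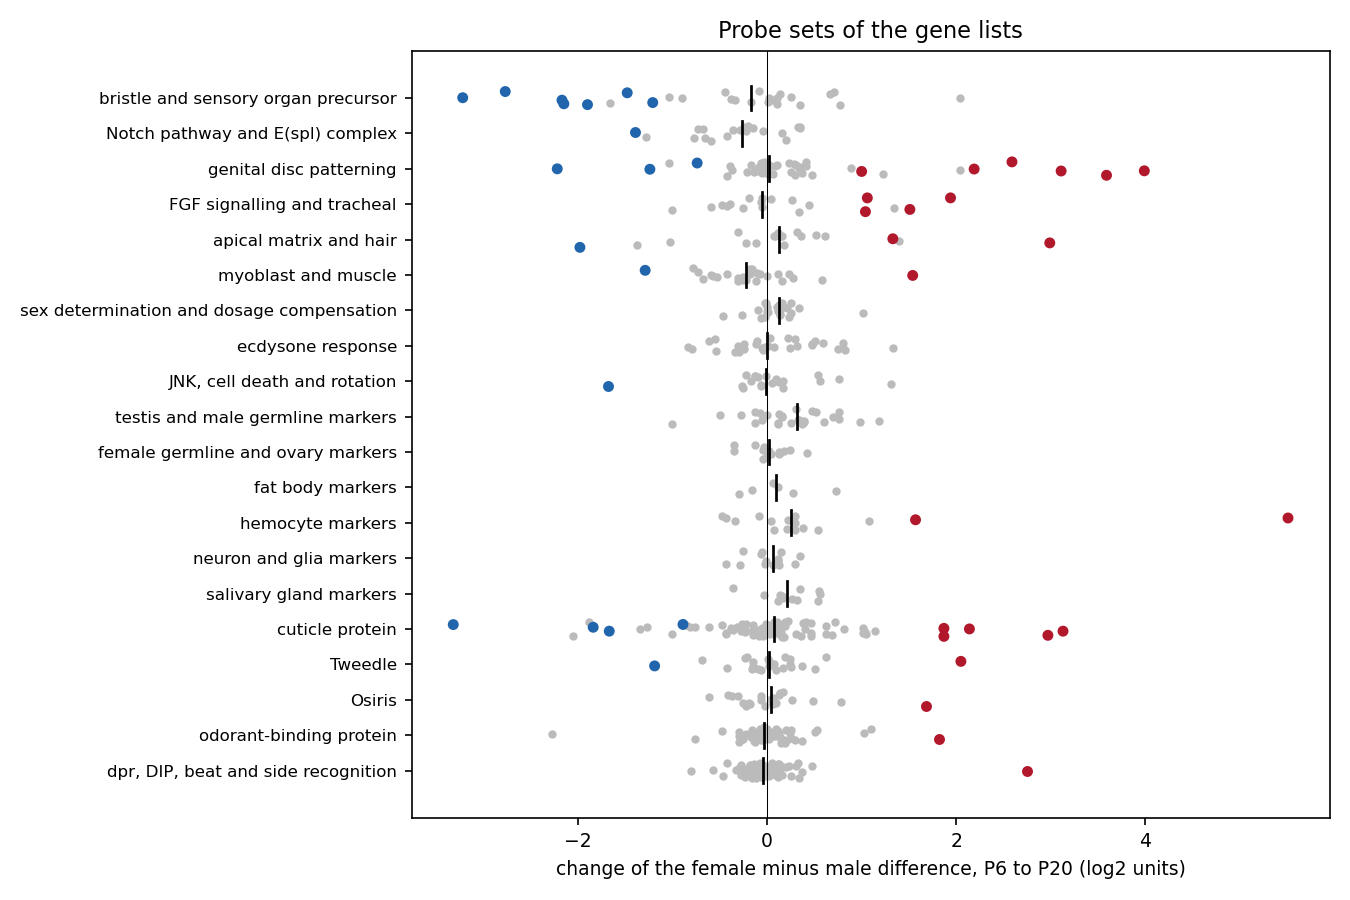
Change of the female minus male difference from P6 to P20 (horizontal axis, log2 units) for every probe set of the 20 gene lists; red points moved towards females and blue points towards males, grey points did not pass, and vertical bars are list medians. The bristle and sensory organ list has 7 blue points and no red one, the FGF and tracheal list 4 red points and no blue one, and most lists, the 2 germline lists included, lie near 0 with no coloured point or few.

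For regulators at the top of the sex hierarchy no change of the sex difference passed. None of the 24 probe sets of the sex determination and dosage compensation list passed, beside 1.33% of all probe sets. At that share a list of this size would hold few calls or none. The median change of the list was 0.12. For dsx, the probe set with male-higher values read -0.85 at P6 and -0.84 at P20, a change of 0.01 with a 95% interval of -0.38 to 0.39. The other dsx probe set, which is higher in females, went from 4.67 to 4.82 (change 0.16, interval -0.21 to 0.53). The splicing factor gene tra, higher in females, went from 0.66 to 0.80 (change 0.14, interval -0.21 to 0.49). The dosage compensation gene msl-2, higher in males, went from -1.07 to -0.98 (change 0.10, interval -0.41 to 0.60). The 3 Sxl probe sets changed by 0.14, 0.21 and -0.06, with intervals of -0.22 to 0.49, -0.94 to 1.35 and -0.51 to 0.39.

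Other sex-marking patterning genes also gave no call, with intervals of different width. The posterior gene en was higher in males by a like amount at both stages, -0.57 and -0.62 (change -0.05, interval -0.38 to 0.27), and dpp, the BMP-type ligand gene, changed by 0.31 (interval -0.07 to 0.69). The Pax gene eyg, higher in females, went from 3.46 to 3.81 (change 0.34, interval -0.12 to 0.81). For the Runx gene lz, which the spermathecae need, the difference went from 5.12 to 7.15, and the change of 2.04 had an interval of 0.86 to 3.22 with adjusted p = 0.118. Its P6 male arrays were uneven, at 5.72, 5.66, 3.48 and 3.74, while P20 males read 3.43 to 3.66 and females 9.63 to 9.93 and 10.22 to 10.94. With array weights the lz change was 2.39 and passed (adjusted p = 0.0182). The BTB-domain gene bab1 widened from 1.25 to 2.14 (change 0.89, interval 0.40 to 1.38, adjusted p = 0.0925), and passed with a replicate block within each stage (adjusted p = 0.0403). None of the 32 probe sets of the ecdysone response list passed, beside 1.33% of all probe sets, with a median change of -0.01.

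The L3 arrays were fitted alone to ask whether the changed genes already differed in the larva, a readout that the contrast did not use and that was added after the data were seen. Of all probe sets, 46 (0.337%) passed at L3, 14 female-higher and 32 male-higher. Among the 181 changed probe sets 15 passed at L3 (8.29%), 5 female-higher and 10 male-higher. Of the 50 that were female-higher at P6, 5 were female-higher and none male-higher at L3. Of the 48 that were male-higher at P6, 7 were male-higher and none female-higher. Of the 83 with no call at P6, 3 passed at L3, all male-higher. The share passing at L3 among all probe sets that differed between the sexes at P6 was not computed. Whether the share is particular to the changed probe sets is therefore not known.

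Single genes differed in this respect. The male-higher differences of CG13053 (-5.55, adjusted p = 7.33e-05), Dr (-5.85), bnl (-3.06, adjusted p = 0.00109) and btl (-1.74, adjusted p = 0.00552) were present at L3. So was the female-higher difference of dpr17 (3.43, adjusted p = 0.000776), which was thus larger in the larva than at P6. The sexes did not pass at L3 for gcm (0.04), gcm2 (0.28), ato (1.31, adjusted p = 0.534), l(1)sc (0.64, adjusted p = 0.346), Pxd (1.16), ac (-0.19) or sc (0.00). The larval replicates varied more, with a median SD of 0.245 to 0.247 log2 units.

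Changed probe sets lay on every large chromosome arm. They made up 1.55% of probe sets on X, 1.5% on 2L, 1.10% on 2R, 1.13% on 3L and 1.38% on 3R, and none of the 82 on chromosome 4 passed. Besides the y to l(1)sc run and gsb with gsb-n, adjacent genes that both passed included wb, a laminin chain gene, with CG32971, which moved towards females by 1.41 and 1.53. Of 20 pairs of changed genes with at most 2 genes between them, 14 moved in the same direction and 6 in opposite ones. Of the 10 directly adjacent pairs 9 moved in the same direction. The pairs y with ac, ac with sc and sc with l(1)sc come from 1 run and share genes, so the pairs are not independent. The share to be met without any link between neighbours was not computed. The genes gsb (-1.44) and lov (3.59), with 1 gene between, were a pair of opposite direction. Probe sets that fell most with stage leaned towards males. Of the 287 whose mean over the sexes fell by 2 log2 units or more, 27 passed towards males and 7 towards females, beside 113 and 68 of all 13647. Whether or not they passed, 63.1% of the 287 had a change towards males, against 44.9% of all probe sets. Their median change was -0.16, against 0.02 over all. Of the 151 that rose as much, 8 passed towards males and 7 towards females, and 52.3% had a change towards males.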

How the data were processed

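Each sample, 20 ng of total RNA of dissected genital discs, was hybridised after labelling to an Affymetrix Drosophila Genome 2.0 array of its own, per the labels' protocols. The deposited values are log2 levels per probe set that the authors made with RMA, per the submitters' processing notes; its version and settings are not given in the sources used here. No detection calls were given, so signal over background is unknown. The annotation gave 1 gene symbol to 13647 probe sets, several to 402 and none to 4720; 183 controls were left out. Gene order and chromosome arms came from a Release 6 gene table, which 13544 probe sets matched. The genome build of the array annotation is not given, and no coordinates are printed.

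The contrasts were fitted with limma 3.58.1 (lmFit, eBayes) in R 4.3.3, with 1 mean for each of the 4 groups on 16 arrays, 12 residual degrees of freedom, two-sided, and Benjamini-Hochberg adjustment over 13647 probe sets. Probe sets passed at an adjusted p under 0.05. The L3 arrays were kept out because their replicates varied more. The procedure was tested on simulated data. The L3 readout was added after the data were seen. The members, lists and naming rule were chosen with earlier results of these data known.

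Named genes are those past the threshold with the 10 largest changes in each direction among symbols other than CG or CR numbers, the 2 largest each way among CG and CR numbers, and up to 6 that turned sign between passing differences. Up to 5 members of each of 20 lists and a panel of regulators were named as well. Of several probe sets of a gene, the one with the highest mean among those that met the rule was used. For Pxd and Timp the sign turned between passing differences on only 1 of their probe sets, which was not the brighter one. Lists of fat body, salivary gland, neuron and glia, and female germline genes were read as markers of other tissues. None of their members passed, beside 1.33% of all probe sets.

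No batch is named in the labels. Whether a shared replicate number pairs a female with a male array was checked by correlating their deviations from the group means. At P6 the correlation was 0.27, 0.07, 0.02 and 0.24 for numbers 1 to 4. It exceeded that with every other number for 1 and 4 but not for 2 and 3. So few values cannot decide whether the P6 samples are paired. At P20 it was 0.11, 0.41, 0.25 and 0.40, each above that with every other number. For number 1 the margin was small, 0.11 against 0.10. Any pairing at P20 is read from the data and is not in the labels.

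Alternatives were a fit to all 24 arrays, median centring, a mean-variance trend with robust eBayes, array weights, leaving out the dimmest 1 in 3 probe sets, 1 probe set per gene, the replicate number as a block, and leaving out each array in turn.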

Additional observations from a re-analysis of the deposited data

Results flagged for a closer look

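The sex difference itself differed between the stages for 181 probe sets, by the test of the difference. For 8 genes the sexes passed at both stages with opposite signs. The change of the difference was -5.07 for Pxd, -4.03 for CG8483, -2.85 for Ndg, -2.17 for ac, -2.07 for Amyrel, -1.90 for sc, -1.83 for Timp and -1.13 for mid.

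Single arrays lay far from the other 3 of their group for 17 of 348 groups of 4 values on the named probe sets (4.89%; chance gives about 1 in 20). Among genes that changed, the distant arrays were lov in P20 male replicate 3 (4.62, others 3.20 to 3.43), Pcp in P20 female replicate 1 (8.40, others 8.92 to 9.00) and bond in P20 male replicate 2 (5.76, others 5.04 to 5.14). Others were Pxd in P6 male replicate 1 (5.92, others 4.84 to 4.93), prt in P20 male replicate 4 (6.99, others 6.25 to 6.27) and unpg in P20 female replicate 3 (3.78, others 4.08 to 4.12). For Timp they were P6 female replicate 2 (11.21, others 10.98 to 11.01) and P20 male replicate 4 (10.05, others 10.35 to 10.39). Further ones were dac in P20 female replicate 1 (10.71, others 9.96 to 10.05), Osi1 in P20 male replicate 3 (5.53, others 5.75 to 5.77) and CG4267 in P20 female replicate 4 (9.19, others 8.29 to 8.40).

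Among genes that did not pass, they were Obp99a in P20 male replicate 1 (11.80, others 9.60 to 9.86), htl in P6 female replicate 3 (9.93, others 9.72 to 9.75) and en in P6 male replicate 2 (9.83, others 9.90). P20 male replicate 4 was low for Sxl (11.76, others 12.07 to 12.13) and for msl-2 (9.46, others 10.09 to 10.12), and P20 female replicate 4 was low for msl-2 (8.50, others 9.08 to 9.18). P20 male replicate 4 held 4 of the 17 flags.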

How the results depend on the processing

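Of 181 probe sets, 133 were shared with the 145 that passed in the fit to all 24 arrays, 176 with 189 after median centring, 172 with 178 under a mean-variance trend and 178 with 257 under array weights. Without the dimmest 1 in 3 probe sets, 160 of the 181 were still tested, and all 160 were among the 170 that passed. The probe sets of prt, l(1)sc, ato, unpg and btl were among those left out as dim, so that setting says nothing about them. Leaving out 1 array gave 156 to 201 probe sets, 58 to 87 towards females and 94 to 120 towards males. With the replicate number as a block within each stage 223 passed and with a block across stages 190, against 181 without a block. None of the 71 named calls reversed its sign in these settings, while changes near 0 did, as for dsx (0.01, and -0.04 after median centring; -0.08 to 0.13 without 1 array). Of the 71, 62 held with all 24 arrays; beside those given above, kon (adjusted p = 0.0503), spz (0.121) and CG4267 (0.249) were lost. Besides bab1, the genes mey (0.0458), Obp99a (0.0269) and phyl (0.00331) passed under the block within each stage. Under array weights E(spl)m5-HLH (0.0353), Pxn (0.023) and Poxn (0.017) passed. The causes were not tested. Depth is not defined for arrays, and differences of dim probe sets may be understated, which could not be measured without detection calls.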

Other observations

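Further genes that passed were named after their values were seen. Among transcription factor genes that had been higher in males at P6, the Sox gene SoxN went from -1.98 to 0.27 (change 2.25, adjusted p = 6.18e-06), the T-box gene Doc2 from -1.13 to 0.05 (change 1.18, adjusted p = 0.000102) and the zinc finger gene sna (snail) from -2.58 to -0.91 (change 1.67, adjusted p = 0.00079). Six4, a homeobox gene of mesoderm and gonad, went the other way, from -0.86 to -2.04 (change -1.18, adjusted p = 0.00279). The homeobox gene B-H1 lost a female-higher value of 1.68 (change -1.39, adjusted p = 0.00361), as did the ligand gene Wnt6 (1.54 at P6, change -1.56, adjusted p = 0.0033).

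Each of the next 4 genes, likewise named after their values were seen, moved towards males. The muscle list had 1 gene passing each way, beside 66 towards females and 108 towards males of all 11982 genes. Of its 27 probe sets, 25 gave no call. The mean level of that list was higher in females at P6 (6.45 to 6.67 against 6.17 to 6.40) and overlapped at P20 (6.99 to 7.21 against 7.01 to 7.09), and its part in these results was not tested. Tsp, which encodes the tendon matrix protein thrombospondin, went from 1.66 to 0.00 (change -1.67, adjusted p = 1.82e-05), with -1.51 on its second probe set. The muscle tubulin gene alphaTub85E went from 1.59 to 0.01 (change -1.58, adjusted p = 0.0033) while it rose in both sexes. The sarcomere gene zormin went from 1.18 to -0.10 (change -1.28, adjusted p = 0.000867) on a probe set that passed, while a brighter zormin probe set gave no call. The myotube guidance gene kon (kon-tiki) went from 0.29 to -0.74 (change -1.03, adjusted p = 0.00361). The Toll ligand gene spz moved towards females, from 0.46 to 1.88 (change 1.41, adjusted p = 0.00468). The uncharacterised gene CG4267 kept a large female-higher difference that narrowed from 5.43 to 3.98 (change -1.45, adjusted p = 0.00612).

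Among the 4720 probe sets that the annotation assigns to no gene, 19 passed for the change when fitted beside the rest (0.403%, 9 towards females and 10 towards males), with a largest size of 3.01. Of the 402 that match several genes 1 passed.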
